A study of Caenorhabditis elegans with 30 samples.

Results

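Training with the odorant butanone was compared with no training in Caenorhabditis elegans that had then spent 2 h on ice. The comparison holds 18 of the study's 30 samples, 9 of conditioned worms and 9 of naive worms, in 9 pairs. A pair is the conditioned and the naive sample that carry the same cultivation group and the same letter in their labels. All 18 samples are RNA of whole N2 worms, the standard laboratory wild type, fed Escherichia coli OP-50, with no lithium. Each cultivation group gave 3 pairs. At 15 °C (pairs B, G and H) the worms were kept overnight at 15 °C, which makes them cold tolerant, and by the study's account they do not delay forgetting on ice. At 15 to 20 °C (pairs C, D and H) the night at 15 °C was followed by 2 h at 20 °C to undo that tolerance. At 20 °C (pairs A, E and F) the worms stayed cold sensitive, and by the same account they delay forgetting on ice. Conditioned and naive worms of a pair shared the cultivation and the ice and differed in training. Either of 2 SMART-Seq kits made the cDNA, and the labels do not say which made that of a given sample. No training without ice was compared here, so every training difference below was measured after ice. The labels give neither the training schedule nor whether food was present, and no age.

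In C. elegans butanone is sensed by the AWC olfactory neurons, where receptors signal through G proteins and guanylate cyclases such as ODR-1 to the cyclic nucleotide gated channel of TAX-2 and TAX-4. The cGMP-dependent kinase EGL-4 is required for lasting adaptation of these neurons, TIR-1 and the RNA-binding protein MSI-1 act in forgetting, and the transcription factor CRH-1 acts in long-term associative memory. These neurons are a small part of the animal, so RNA of whole worms is mostly RNA of intestine, germline, muscle and epidermis. In such bulk RNA fewer cells of a type and less RNA per cell cannot be told apart.

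The 18 libraries held between 9873554 and 30054357 counts over 46778 genes, and 14864 genes passed the filter on low counts. Levels are given as CPM, counts per 1000000 counts of a library, with library sizes scaled by the trimmed mean of M values. A log2 fold change is conditioned over naive, so 1 is a doubling. The pairs differed far more from each other than the 2 samples within them. All 18 samples correlated best with their own partner, and the biological coefficient of variation was 0.19 with the pair in the model and 0.66 without it. The 20 °C pair E stood apart. Its libraries were the smallest, and ribosomal protein genes summed to 141800 CPM in its conditioned and 112600 CPM in its naive sample, against 29530 to 51570 CPM in the other 16 samples. Several results below are given with and without it, and medians of gene lists with their range when 1 pair was left out.

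Over the 9 pairs no gene passed the adjusted threshold of 0.05 in edgeR's quasi-likelihood test with the pair as a block, which is 0% of the 14864 tested. The lowest Benjamini-Hochberg adjusted p of edgeR was 0.12, shared by 15 genes. At an unadjusted p under 0.05 edgeR counted 1320 genes, 8.88% of those tested, of which 868 were higher and 452 lower in conditioned worms (5.84% and 3.04%). DESeq2 with the same block called 44 genes higher (0.314% of 13999) and 1 lower (0.00714%). Without the 20 °C pair E edgeR called 28 genes, all higher, and leaving out any other single pair gave 0 calls. Of the 28, 20 were also among DESeq2's calls, which come from the same samples with pair E kept. All 27 genes with an edgeR adjusted p under 0.2 were higher in conditioned worms, by 0.44 to 0.98 on the log2 scale, and 25 of them were higher in at least 8 of 9 pairs. A low p with the pair as a block itself favours agreement between pairs, so that count adds no separate evidence. Across the transcriptome 63 genes were higher in all 9 pairs (0.424%) and 35 were lower in all 9 (0.235%). The median log2 fold change of all genes was 0.02.

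The gene of lowest p was fmo-2 (WBGene00001477, chromosome IV, 10682524 to 10684367 on the plus strand of ce11), a flavin-containing monooxygenase, an enzyme that oxidises small molecules and a known target of the hypoxia pathway. At 15 °C fmo-2 had 958, 9.16 and 813 CPM in conditioned worms of pairs B, G and H, against 782, 6.46 and 641 CPM in their naive partners. At 15 to 20 °C it had 16.494, 43.3 and 1246 CPM in conditioned worms of pairs C, D and H, against 12.4, 23.8 and 745 CPM in naive worms. At 20 °C it had 174, 6.83 and 22.2 CPM in conditioned worms of pairs A, E and F, against 118.6, 5.12 and 10.4 CPM in naive worms. The level thus varied over 2 orders of magnitude between pairs, and the 2 groups overlapped widely, while the conditioned sample was the higher one in 9 of 9 pairs. The log2 fold change was 0.58 (SE 0.10, edgeR adjusted p = 0.12, DESeq2 adjusted p = 8.1e-06). The other flavin monooxygenase with an unadjusted p under 0.05 was fmo-1, at 0.43 (SE 0.12, edgeR adjusted p = 0.40) and higher in 8 of 9 pairs. Of the 5 fmo genes tested 4 were higher (80%, against 53.4% of all genes).

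**Figure D1:**
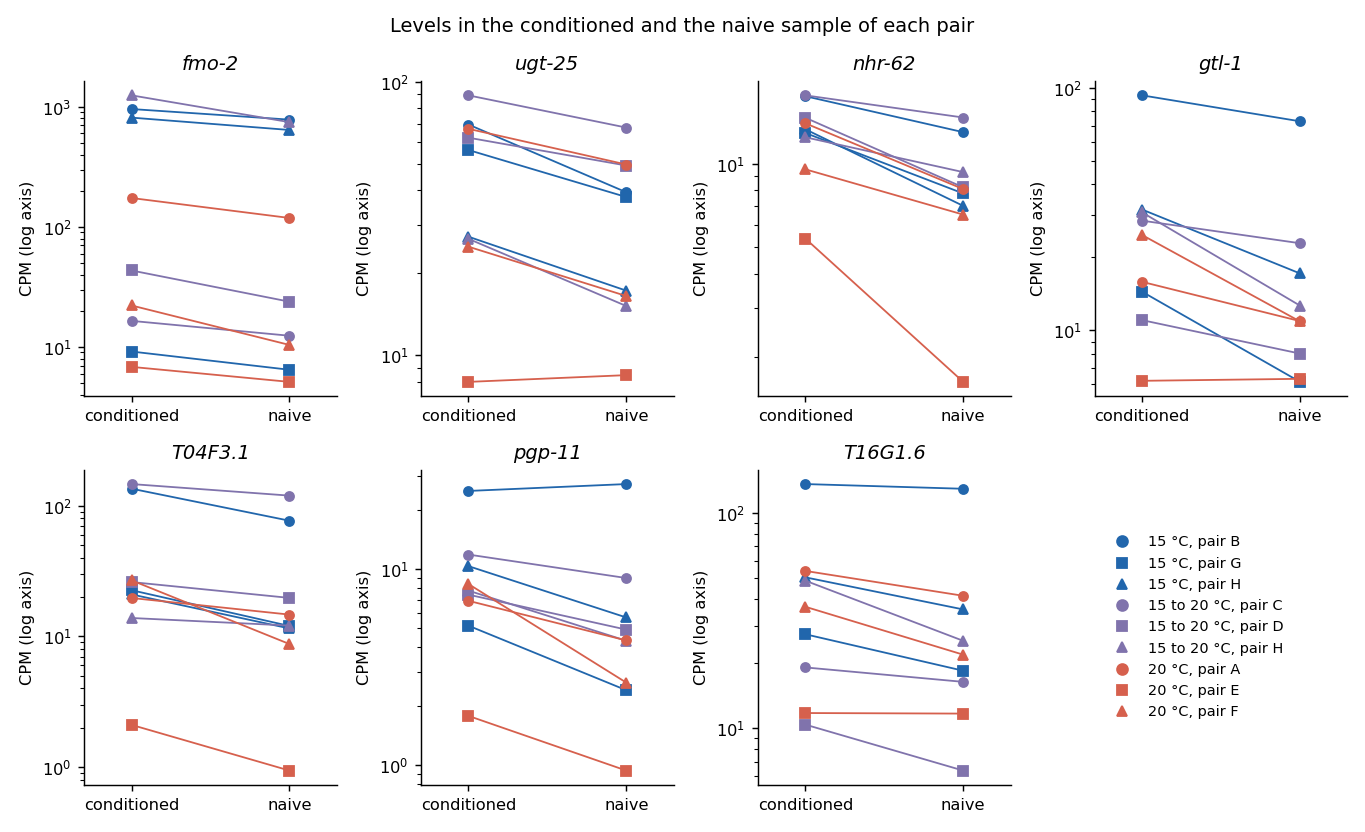
CPM (log axis) in the conditioned (left) and the naive (right) sample of each pair for 7 genes, a line joining the samples of a pair, colours for cultivation groups. The lines start at very different heights and nearly all slope down towards naive, as for fmo-2, which was higher in the conditioned sample in 9 of 9 pairs.

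UDP-glucuronosyltransferases, which attach a sugar to small lipophilic molecules so that they can be excreted, held several genes near the top of the ranking. The lowest p among them was that of ugt-25 (WBGene00015692, chromosome I, 4731606 to 4735276, plus strand). It had 69.7, 56.2 and 27.1 CPM in conditioned worms at 15 °C, against 39.4, 37.8 and 17.2 CPM in naive worms of pairs B, G and H. At 15 to 20 °C it had 89.1, 62.4 and 26.6 CPM in conditioned worms, against 67.9, 49.4 and 15.1 CPM in naive worms of pairs C, D and H. At 20 °C it had 67.2, 7.98 and 24.9 CPM in conditioned worms, against 49.8, 8.45 and 16.45 CPM in naive worms of pairs A, E and F. Only pair E went the other way. The log2 fold change was 0.52 (SE 0.09, edgeR adjusted p = 0.12, DESeq2 adjusted p = 0.00026). Reads carried no strand, and the exons of ugt-25 share 26 bases with mlst-8 on the other strand. Both ugt-51 (0.56, SE 0.11) and ugt-29 (0.44, SE 0.09) were higher in 9 of 9 pairs at an edgeR adjusted p of 0.12. Of 64 UDP-glucuronosyltransferase genes tested 48 were higher, against 53.4% of all genes, 16 at an unadjusted p under 0.05 (25%, against 5.84% of all genes) and none lower at that p, and DESeq2 called 4. Their median log2 fold change was 0.15, and 0.11 to 0.18 with a pair left out. By cultivation group the median was 0.25 at 15 °C, with 56 of 64 higher, and 0.14 at 15 to 20 °C, with 48 higher. At 20 °C it was 0.03, with 33 of 64 higher, against 54% of all genes. There 5 were higher and 2 lower at an unadjusted p under 0.05, against 2.61% and 1.07% of all genes.

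Other classes of detoxification genes differed in direction. Cytochromes P450, which carry out the first oxidation of many foreign compounds, were higher in 47 of 66 genes tested (71.2%, against 53.4% of all genes). Of them 6 were higher at an unadjusted p under 0.05 (9.09%, against 5.84% of all genes). Their median was 0.12, and it was 0.05 without pair H at 15 to 20 °C. Glutathione transferases, which conjugate glutathione to reactive compounds, were lower in 27 of 36 (25% higher, against 53.4% of all genes). Of them 2 were lower at an unadjusted p under 0.05 (5.56%, against 3.04% of all genes). Their median was -0.09, and it lay between -0.15 (without 20 °C pair E) and -0.04 (without 20 °C pair F). At 20 °C 18 of 36 were higher and the median was -0.01. P-glycoproteins, ABC transporters that pump small molecules out of cells, were higher in 9 of 12 genes tested (75%, against 53.4% of all genes). Of them 4 were higher at an unadjusted p under 0.05 (33.3%, against 5.84% of all genes), and DESeq2 called 3. The median was 0.29, and it was 0.13 without 20 °C pair E and lay between 0.13 and 0.34 over the 9 left-out pairs. The 3 called by DESeq2 were pgp-11, pgp-5 and pgp-2. pgp-11 had a lowest, median and highest level of 1.79, 7.79 and 25.1 CPM in conditioned worms, against 0.94, 4.34 and 27.3 CPM in naive worms. The groups overlapped, and the conditioned sample was higher in 8 of 9 pairs (log2 fold change 0.74, SE 0.15, edgeR adjusted p = 0.16). pgp-5 was higher by 0.64 (SE 0.14) in 8 of 9 pairs and pgp-2 by 0.41 (SE 0.09) in 9 of 9. The P-glycoprotein, monooxygenase, nuclear receptor and T16G1 groups, and the split of the detoxification list into its families, were chosen after the values had been seen.

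Nuclear hormone receptors are ligand-regulated transcription factors, a family much expanded in nematodes. nhr-62 (WBGene00003652, chromosome I, 9839598 to 9844809, plus strand), known for its role in the longevity of food-restricted worms, had a lowest, median and highest level of 5.36, 13.3 and 17.7 CPM in conditioned worms, against 1.62, 8.09 and 14.7 CPM in naive worms. It was higher in the conditioned sample in 9 of 9 pairs, by 0.26 to 1.67 on the log2 scale, with the highest ratio in the 20 °C pair E. The log2 fold change was 0.69 (SE 0.12, edgeR adjusted p = 0.12, DESeq2 adjusted p = 0.00026). Without pair E it was 0.61, at an edgeR adjusted p of 0.028. Of 180 receptor genes tested 120 were higher, against 53.4% of all genes. At an unadjusted p under 0.05 20 were higher (11.1%, against 5.84% of all genes) and 2 lower (1.11%, against 3.04%). The median was 0.08, and 0.05 without pair H at 15 to 20 °C. The lower one of lowest p, nhr-133, had a log2 fold change of -0.29 (SE 0.08, edgeR adjusted p = 0.41) and was lower in 8 of 9 pairs.

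The other named higher genes were of several kinds. gtl-1 (chromosome IV, 11248884 to 11259535, minus strand), a TRPM cation channel of the intestine, had a lowest, median and highest level of 6.20, 24.7 and 93.2 CPM in conditioned worms, against 6.13, 10.9 and 72.8 CPM in naive worms. Its log2 fold change was 0.71 (SE 0.13, edgeR adjusted p = 0.12), with 8 of 9 pairs higher. T04F3.1, a long gene with 10634 exonic bases, had 2.10, 22.6 and 146.5 CPM in conditioned worms as lowest, median and highest level, against 0.94, 12.1 and 119.5 CPM in naive worms. It was higher in 9 of 9 pairs, by 0.70 (SE 0.13, edgeR adjusted p = 0.12). WBGene00015966 (0.66, SE 0.12), which the annotation used here does not hold and which reaches a mean of 10 CPM only through 15 °C pair B, was higher in 8 of 9 pairs. H03A11.2 and the C-type lectin gene clec-223, both outside the rule for named genes and chosen after their values were seen, were higher in 9 of 9 pairs by 0.98 (SE 0.17) and 0.79 (SE 0.17). In the T16G1 cluster of neighbouring paralogues on chromosome V, T16G1.6 and T16G1.7 were higher in 9 of 9 pairs by 0.46 (SE 0.10) and 0.29 (SE 0.08), and T16G1.4 in 8 of 9 by 0.48 (SE 0.09). Of the 8 genes of this cluster tested 5 were higher (62.5%, against 53.4% of all genes) and 3 lower. Counts of such similar neighbours are uncertain, since reads can be split between them.

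**Figure D2:**
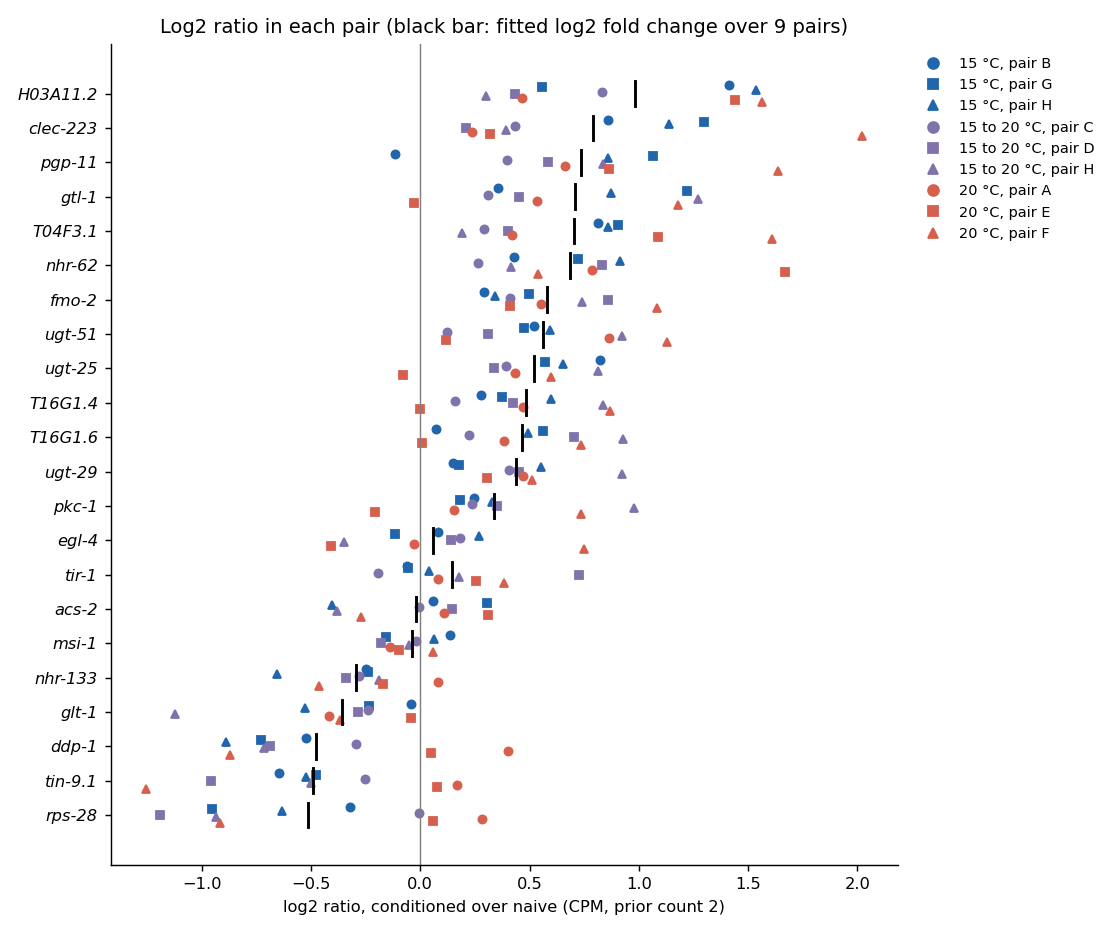
Log2 ratio of conditioned over naive in each pair (points, coloured by cultivation group) for 22 genes, with the fitted log2 fold change over 9 pairs as a black bar. All 9 points of fmo-2, nhr-62 and T04F3.1 lie right of 0 and all 9 of glt-1 left of it, while egl-4, tir-1, acs-2 and msi-1 lie on both sides.

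The lower genes named by the rule had smaller differences in relation to their error, and over 9 pairs none had an edgeR adjusted p under 0.37. They included ddp-1 and tin-9.1, small chaperones that carry proteins across the space between the mitochondrial membranes. ddp-1 had a lowest, median and highest level of 5.32, 5.97 and 113.1 CPM in conditioned worms, against 7.68, 9.95 and 109 CPM in naive worms. The highest value of each group is pair E's, without which ddp-1 would not reach the mean level of 10 CPM asked of named genes. It was lower in 7 of 9 pairs, with a log2 fold change of -0.48 (SE 0.13, edgeR adjusted p = 0.37). tin-9.1, which likewise reaches 10 CPM only through pair E, was at -0.49 (SE 0.14), btb-17, a BTB-domain gene, at -0.34 (SE 0.10), the ribosomal protein gene rps-28 at -0.51 (SE 0.15) and the snoRNA C14E2.12 at -0.66 (SE 0.19). The glutamate transporter gene glt-1 was lower in 9 of 9 pairs. It had a lowest, median and highest level of 6.67, 12.9 and 16.17 CPM in conditioned worms, against 14.0, 16.08 and 19.5 CPM in naive worms, so the groups overlapped, the highest conditioned sample lying above the naive median (log2 fold change -0.36, SE 0.11, edgeR adjusted p = 0.41). DESeq2's single lower call was nspa-1, a short nematode-specific peptide gene with a mean of 1.19 CPM and a log2 fold change of -1.88 (edgeR adjusted p = 0.32), lower in 8 of 9 pairs.

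Ribosomal protein genes were lower in all 79 tested, with a median of -0.21, and 31 were lower at an unadjusted p under 0.05, against 3.04% of all genes. None passed the adjusted threshold. rps-28 had 54.03 CPM as median in conditioned and 93.4 CPM in naive worms, and rpl-38 had 138 CPM in conditioned and 204 CPM in naive worms. In each case 20 °C pair A was higher in the conditioned sample, and for rps-28 so was pair E. The median log2 ratio of the 79 genes was above 0 in these 2 pairs only, at 0.12 in A and 0.27 in E. The ribosomal protein median lay between -0.27 and -0.15 with a pair left out. Neuropeptide genes were lower in 61 of 77 (20.8% higher, against 53.4% of all genes). Of them 5 were lower at an unadjusted p under 0.05 (6.49%, against 3.04% of all genes) and 0 higher at that p. Their median was -0.15, and it lay between -0.23 (without 20 °C pair E) and -0.056 (without 20 °C pair F). At 20 °C the median was -0.04, with 34 of 77 higher. One of the 5, nlp-8, was lower in 9 of 9 pairs, at a mean of 0.73 CPM (log2 fold change -0.96, SE 0.29, edgeR adjusted p = 0.41).

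No gene of olfaction or memory passed the adjusted threshold of edgeR or DESeq2. egl-4 had a lowest, median and highest level of 59.6, 137.7 and 192 CPM in conditioned worms, against 69.0, 112.5 and 169 CPM in naive worms. It was higher in 5 of 9 pairs, with a log2 fold change of 0.06 (SE 0.11). tir-1 was at 0.15 (SE 0.09), msi-1 at -0.04 (SE 0.08) and crh-1 at -0.22 (SE 0.12), each with an edgeR adjusted p of at least 0.62. The guanylate cyclase gene odr-1 and the glutamate receptor gene glr-1 were close to the floor of detection. odr-1 had medians of 0.68 CPM in conditioned and 0.42 CPM in naive worms (log2 fold change 0.70, SE 0.46), and glr-1 had 0.58 CPM in conditioned and 0.27 CPM in naive worms (0.87, SE 0.45). Without 20 °C pair F odr-1 was at 0.37, and without 15 °C pair H glr-1 was at 0.43. The G protein gene odr-3 and the channel gene tax-4 did not pass the filter on low counts. Of the 26 genes of AWC signalling that passed it 20 were higher, against 53.4% of all genes, and 2 were higher at an unadjusted p under 0.05 (7.69%, against 5.84%). Their median was 0.10, and 0.06 to 0.14 with a pair left out. Of 36 genes of learning, memory and forgetting 22 were higher (61.1%, against 53.4% of all genes). Their median was 0.05, and 0.02 to 0.08 with a pair left out. The protein kinase C gene pkc-1 had the lowest p of these, at 0.34 (SE 0.10, edgeR adjusted p = 0.42) and higher in 8 of 9 pairs. With the exon length trend removed, described next, both medians turned negative, to -0.05 for AWC signalling (11 of 26 higher) and -0.04 for memory (8 of 36 higher). Of 116 genes taken by chemoreceptor family names 63 were higher (54.3%, against 53.4% of all genes). Of the 4 at an unadjusted p under 0.05 srlf-7, srlf-32 and srgp-1 carry names outside the receptor families.

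The training difference moved with gene length. Among 14203 protein-coding genes 13.5% of the longest quartile by exon length and 0.704% of the shortest were higher at an unadjusted p under 0.05. Lower genes ran the other way, 0.704% of the longest and 7.66% of the shortest quartile. The median log2 fold change was 0.12 in the longest and -0.09 in the shortest quartile. The trend was not common to all pairs. The median log2 ratio of the longest minus the shortest quartile was positive in 7 of 9 pairs, at most 0.90 in the 20 °C pair F, and negative in the 20 °C pairs A (-0.20) and E (-0.55). Its mean over pairs was 0.20 ± 0.41 (SD, n = 9, exact sign-flip permutation test, two-sided, p = 0.18). Without pair E the mean was 0.30 (p = 0.031 in the same exact test), and without pair F it was 0.12 (exact p = 0.36). The share of counts from ribosomal RNA genes had a median of 4.19% in conditioned and 6.20% in naive samples, lower in the conditioned sample in 7 of 9 pairs by 1.49 percentage points on average (exact sign-flip permutation test, two-sided, p = 0.043, n = 9). Pair H at 15 to 20 °C had the largest difference, -6.81 points, and without it the mean was -0.82 percentage points (exact p = 0.086). Over the 9 left-out pairs the exact p ranged from 0.023 to 0.086. Of the 27 genes with an edgeR adjusted p under 0.2, 16 were in the longest quartile. The part of RNA quality or cDNA length in these differences was not tested.

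**Figure D3:**
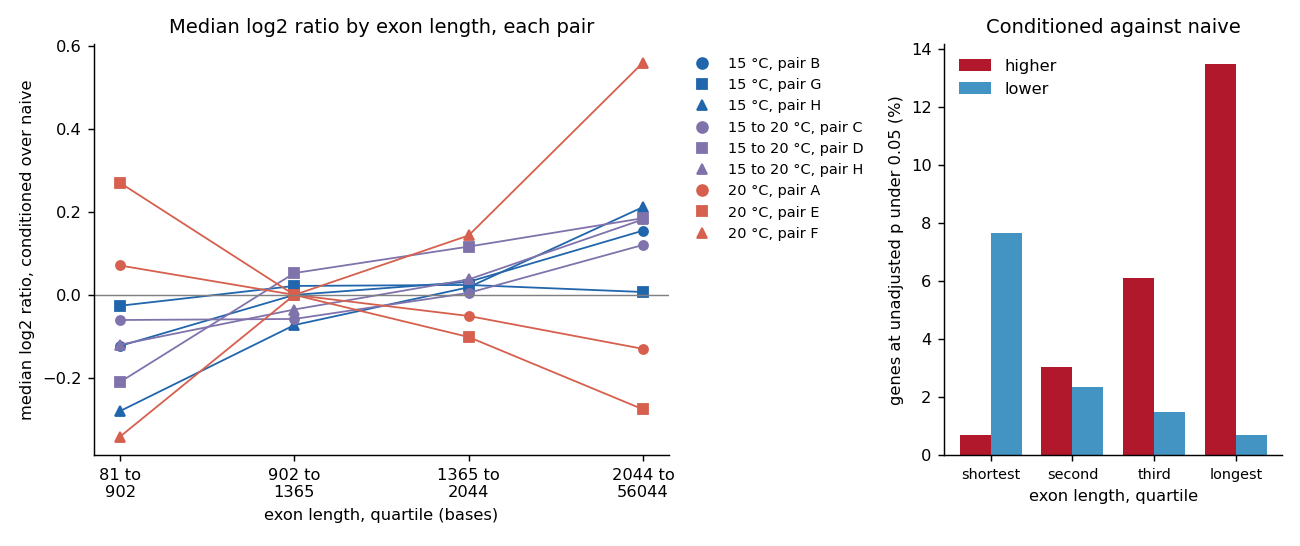
Left, the median log2 ratio of conditioned over naive in each quartile of exon length (bases) for each of the 9 pairs. Right, the percentage of genes of each quartile at an unadjusted p under 0.05 in edgeR's test over 9 pairs, higher (red) and lower (blue) in conditioned worms. The share of higher genes was 0.704% in the shortest and 13.5% in the longest quartile, and pairs A and E at 20 °C slope opposite to the other 7.

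When each sample's trend with exon length was removed, an alternative added after the trend was seen, edgeR called 2 genes, both higher. fmo-2 had a log2 fold change of 0.54 (SE 0.08, edgeR adjusted p = 0.023) and ugt-25 one of 0.48 (SE 0.08, edgeR adjusted p = 0.041). Their exons span 1659 and 1660 bases, near the median of 1365 for protein-coding genes. nhr-62 had 0.63 (SE 0.12, edgeR adjusted p = 0.084). T04F3.1 then had 0.33 (SE 0.11) and gtl-1 0.47 (SE 0.11). The UDP-glucuronosyltransferase median was then 0.11 with 44 of 64 higher, the cytochrome P450 median 0.07, the P-glycoprotein median 0.06 with 6 of 12 higher, and the T16G1 median 0.17. The ribosomal protein median was -0.12, with 4 of 79 higher. Corrected medians of the nuclear hormone receptor, glutathione transferase, neuropeptide, muscle, intestine, epidermis and innate immunity lists are not given here. The shifts stated for those lists are without this correction.

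**Figure D4:**
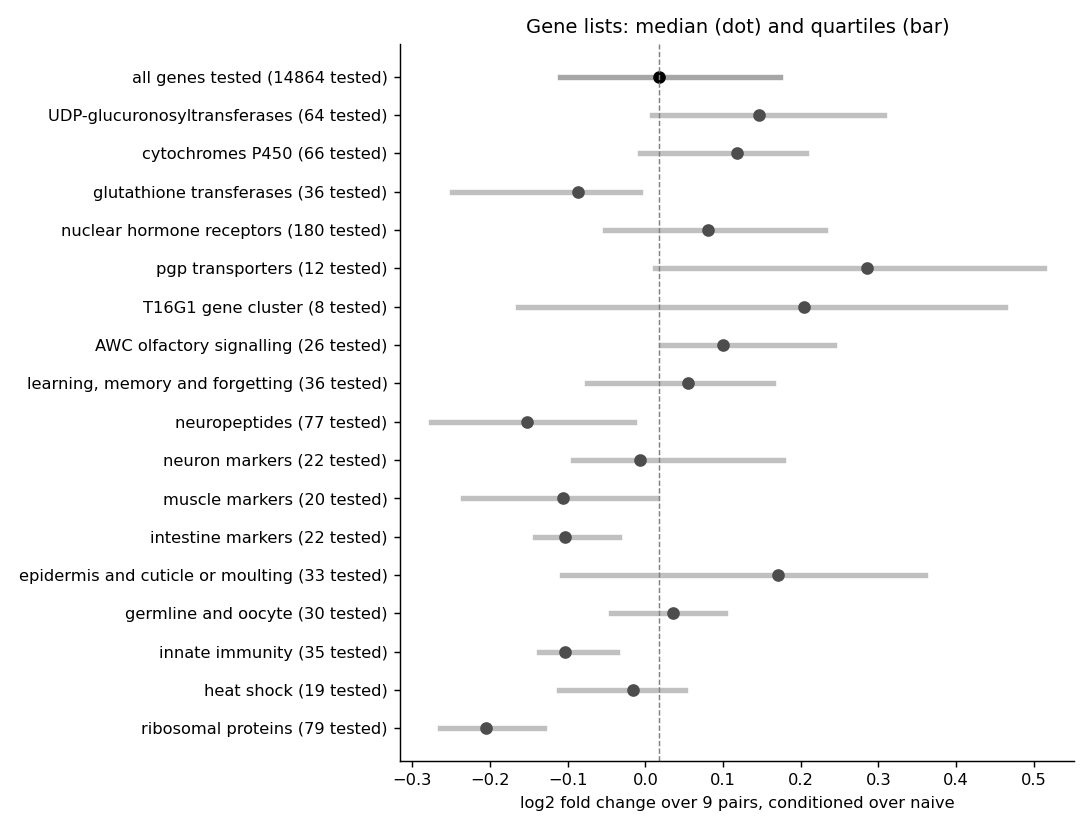
Median (dot) and quartiles (bar) of the log2 fold change over 9 pairs for 17 gene lists and for all genes tested (top, with its median as a dashed line). The UDP-glucuronosyltransferase median is 0.15 and the ribosomal protein median -0.21, against 0.02 for all genes.

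Within cultivation groups no gene passed the adjusted threshold in edgeR (0% in each, 3 pairs a group). At 15 °C 379 genes were higher and 205 lower in conditioned worms at an unadjusted p under 0.05 (2.55% and 1.38%), and DESeq2 called 2 (0.0135%), mfap-1 and T04F3.1, both higher. mfap-1, a homologue of a splicing factor, had 53.8, 54.3 and 23.4 CPM in conditioned worms of pairs B, G and H, against 28.9, 29.2 and 12.61 CPM in naive worms. All 3 pairs showed nearly the same ratio (log2 fold change 0.89, edgeR adjusted p = 0.98, DESeq2 adjusted p = 0.049). The next were T04F3.1 (0.86), atl-1 (1.104), the homologue of the DNA damage kinase ATR, ugt-25 (0.68) and ubr-4 (1.00), a homologue of a ubiquitin ligase. atl-1 and ubr-4 are long, with 7769 and 13596 exonic bases. The lower genes at 15 °C were the snoRNA ZK643.9 (-2.15), ddp-1 (-0.73), the snoRNA C14E2.12 (-1.09), cpna-1 (-0.57) and rps-13 (-0.47). Without pair G cpna-1 was at -0.33. ZK643.9 had 2.15, 0.15 and 0.22 CPM in conditioned worms, against 11.5, 0.39 and 0.74 CPM in naive worms, and passes the 10 CPM mean only through pair E. Leaving out the 20 °C pair F, which is not a sample of this group but shares its estimate of spread, gave 35 calls at 15 °C in edgeR, 33 of them higher.

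At 15 to 20 °C 319 genes were higher and 141 lower at an unadjusted p under 0.05 (2.15% and 0.949%), and DESeq2 called 0. fmo-2 was higher by 0.68 and ugt-29 by 0.59 in all 3 pairs. The nuclear receptor gene nhr-109 had 8.43, 6.56 and 29.1 CPM in conditioned worms of pairs C, D and H, against 4.05, 5.14 and 15.4 CPM in naive worms (log2 fold change 0.78, edgeR adjusted p = 0.997). It did not have this direction at 15 °C (-0.01) or at 20 °C (-0.20). The others of lowest p were lrp-1 (0.70), the homologue of megalin, and the annotated pseudogene WBGene00001091 (1.05), which reaches a mean of 10 CPM only through 15 °C pair B, on the higher side, and rps-28 (-0.71), glt-1 (-0.53), ddp-1 (-0.57), C48B4.9 (-0.41) and the mitochondrial gene WBGene00010966 (-0.92) on the lower. Without pair H glt-1 was at -0.28 there, and without pair D WBGene00010966 was at -0.56 and rps-28 at -0.47. All 12 protein-coding genes of the mitochondrial genome were lower in this group, 8 at an unadjusted p under 0.05 (against 0.949% of all genes), with a median of -0.60. Their summed level was 6722, 1692 and 5336 CPM in conditioned worms of pairs C, D and H, against 6533, 3726 and 9093 CPM in naive worms, so pair C did not share the difference. Of all genes 51.7% were higher there. At 15 °C 9 of the 12 were higher, against 51% of all genes, with a median of 0.18. The pairs differed there too. The summed level at 15 °C was 4477, 3366 and 7293 CPM in conditioned worms of pairs B, G and H. In naive worms it was 6059, 3051 and 4416 CPM, so pair B went the other way and pair H had the largest rise.

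At 20 °C 388 genes were higher and 159 lower at an unadjusted p under 0.05 (2.61% and 1.07%), and DESeq2 called 0. The higher genes were T04F3.1 (1.06), fmo-2 (0.71), C49G7.10 (0.77) and the major sperm protein genes msp-50 (1.18) and msp-49 (1.38). All 43 sperm genes tested together had 18.6 CPM in the conditioned and 6.58 CPM in the naive sample of pair F, so single ones were near the floor there. T04F3.1 rests largely on pair F, without which it was at 0.56. C49G7.10 had 110.3, 77.5 and 99.1 CPM in conditioned worms of pairs A, E and F, against 74.9, 35.5 and 64.2 CPM in naive worms, with no overlap. The lower genes were ZK180.5 (-1.87), ZK688.9 (-0.52), mrp-1 (-0.56), an ABC transporter of the multidrug resistance family, C46A5.6 (-0.42) and pitp-1 (-0.48), a phosphatidylinositol transfer protein. ZK180.5, which reaches a mean of 10 CPM only through 15 °C pair B, rests at 20 °C on pair A, with 0.89 CPM in the conditioned and 5.002 CPM in the naive sample, and without that pair its sign turned, to 0.26.

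Genes of sperm, most of them major sperm protein genes that form the cytoskeleton of the crawling sperm cell, were mostly higher in conditioned worms at 20 °C, though none passed the adjusted threshold of edgeR or DESeq2. Of 43 tested 39 were higher there, against 54% of all genes, and 22 at an unadjusted p under 0.05, against 2.61% of all genes. The median was 1.00, and 0.82 to 1.06 with a pair left out. Their summed level was 39.7, 219 and 18.6 CPM in conditioned worms of pairs A, E and F, against 21.8, 109 and 6.58 CPM in naive worms, higher in each pair. Spread over 43 genes, the sums of pairs A and F leave the average gene close to the floor of detection. The medians were -0.08 at 15 °C and -0.03 at 15 to 20 °C, where the pairs went both ways and the sign of the median turned with 1 pair left out. The summed level varied over pairs from 18.6 to 2346 CPM in conditioned and from 6.58 to 2522 CPM in naive worms, with pairs A and F at 20 °C and pair B at 15 °C the lowest. The major sperm protein genes are nearly identical copies, so the counts of single members are uncertain. With the length trend removed the 20 °C median was 0.64, with 36 of 43 higher.

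**Figure D5:**
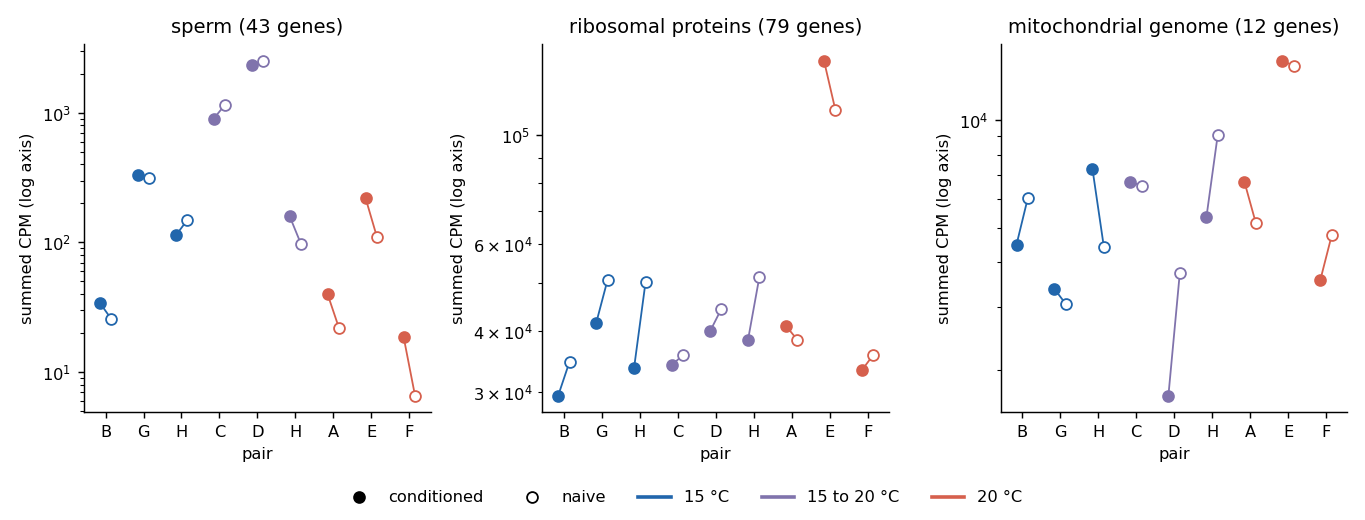
Summed CPM (log axis) of sperm, ribosomal protein and mitochondrial genes in the conditioned (filled) and the naive (open) sample of each pair, coloured by cultivation group. Sperm genes were higher in the conditioned sample in all 3 pairs at 20 °C, at 39.7 against 21.8 CPM in pair A, and ribosomal protein genes were far higher in pair E than in the other pairs.

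Whether the training difference itself differed between the cultivation groups was tested with interaction terms. No gene passed the adjusted threshold in edgeR (0%) or in DESeq2, and 262 genes had an unadjusted p under 0.05 in edgeR (1.76%). The 5 of lowest p were msp-49, msp-50, ZK643.9, ZK180.5 and ssq-2, a gene of sperm, each with an edgeR adjusted p of 1. Of the 43 sperm genes 11 were among the 262. The counts at an unadjusted p under 0.05 were 533 for 15 °C minus 20 °C (3.59%), 398 for 15 to 20 °C minus 20 °C (2.68%) and the fewest for 15 to 20 °C minus 15 °C (0.801%). fmo-2, ugt-25, nhr-62 and gtl-1 had the same sign in the 3 groups. These genes were named for a low p over all pairs, which itself favours agreement between groups. Their shared sign therefore adds no separate evidence. For fmo-2 the log2 fold changes were 0.37 at 15 °C, 0.68 at 15 to 20 °C and 0.71 at 20 °C (edgeR adjusted p = 1 for the difference). For ugt-25 they were 0.68, 0.51 and 0.35 in the same order (edgeR adjusted p = 1). T04F3.1 had 0.86, 0.30 and 1.06 (edgeR adjusted p = 1). The ribosomal protein genes had medians of -0.40 at 15 °C, -0.28 at 15 to 20 °C and 0.07 at 20 °C. Without pair A the 20 °C median was -0.07, and without pair F it was 0.19. At 15 °C 47 of 79 were lower at an unadjusted p under 0.05, against 1.38% of all genes. For the difference 5 of 79 had an unadjusted p under 0.05, against 1.76% of all genes.

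Markers of the tissues in a whole worm had small median differences. Intestine markers were lower in 19 of 22 genes (13.6% higher, against 53.4% of all genes), with a median of -0.10 (-0.06 without 15 °C pair H). At 20 °C their median was 0.004, with 12 of 22 higher. All 6 vitellogenin genes, which encode yolk proteins made in the intestine, were lower, with a median of -0.13. The pairs did not agree, the median log2 ratio of these genes being above 0 in 4 of them. At 15 to 20 °C the median was -0.02, and 0 of the 6 genes had an unadjusted p under 0.05 over all pairs. Muscle markers had a median of -0.11 over 20 genes, between -0.18 (without 20 °C pair E) and -0.05 (without 20 °C pair F). At an unadjusted p under 0.05, 4 were lower (20%, against 3.04% of all genes) and 2 higher (10%, against 5.84%). The myosin gene unc-54 was at -0.33 (SE 0.13) while the giant titin gene ttn-1 was at 0.68 (SE 0.20). Neuron markers (-0.01), germline and oocyte markers (0.04) and embryo markers (-0.02) were near the median of all genes. Epidermis and cuticle genes had a median of 0.17 (0.07 without 15 °C pair H) with 0 of 33 at an unadjusted p under 0.05. Their median log2 ratio was above 0 in 5 pairs. Their summed level went the other way, lower in the conditioned sample in every pair except 20 °C pair E. It was 362.6 CPM in the conditioned and 320.4 CPM in the naive sample of pair E. In 20 °C pair A it was nearly equal, at 790.3 CPM in the conditioned and 790.8 CPM in the naive sample. The part of these shifts in the other results was not tested.

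Lists of stress, food and immunity genes had medians of small size over the 9 pairs. Of 41 genes of fasting and fat breakdown 19 were higher (46.3%, against 53.4% of all genes), with a median of -0.01. Among them acs-2, an acyl-CoA synthetase gene induced by fasting, was at -0.02 (SE 0.09). Innate immunity genes were lower in 28 of 35 (20% higher, against 53.4% of all genes), with a median of -0.10 (-0.16 to -0.05 with a pair left out). The direction was not the same in the 3 groups, with medians of -0.26 at 15 °C, -0.14 at 15 to 20 °C and 0.12 at 20 °C. At 20 °C 28 of 35 were higher, against 54% of all genes. The pairs of that group did not agree, with median log2 ratios of 0.17 in A, 0.53 in E and -0.36 in F. At 15 °C the median log2 ratio was 0.04 in pair G, against -0.25 in B and -0.44 in H. Of the 35 genes 1 had an unadjusted p under 0.05 for the difference between groups, against 1.76% of all genes. Heat shock genes had a median of -0.02, with 2 of 19 lower at an unadjusted p under 0.05, hsp-16.2 at -0.49 (SE 0.18) and hsp-16.41 at -0.40 (SE 0.19). Medians of the other lists were 0.05 for endoplasmic reticulum and mitochondrial chaperones, -0.03 for DAF-16 targets, -0.03 for desaturases and membrane fluidity, -0.07 for metal response, 0.11 for osmotic response, 0.05 for biogenic amine signalling and -0.05 for alcohol, aldehyde and ketone metabolism. In the last list, which would hold enzymes acting on a ketone such as butanone, 1 of 15 genes was higher at an unadjusted p under 0.05 (6.67%, against 5.84% of all genes) and 0 lower. It was the alcohol dehydrogenase gene sodh-2, at a mean of 1.88 CPM (log2 fold change 0.79, SE 0.22, edgeR adjusted p = 0.41). None of these lists held a gene that passed the adjusted threshold of edgeR or DESeq2.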

How the data were processed

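Raw counts per gene were deposited by the authors. Their processing notes name the build ce11 and, without roles, HISAT2, HTSeq, cutadapt, DESeq2 and FastQC (per the submitters' processing notes, versions not given in the sources used here). Per the study's design text SMART-Seq cDNA (HT or v4 kit) was made into Nextera XT libraries, so reads carry no strand. Counts were tested as deposited with edgeR 4.0.16 in R 4.3.3 (TMM scaling, filterByExpr, robust quasi-likelihood F test, Benjamini-Hochberg over 14864 genes). The main fit had the pair as a block and 1 training effect (8 residual degrees of freedom). A second fit had 1 training effect per cultivation group (6). The threshold was 0.05, and log values used a prior count of 2. Exon lengths and positions came from Ensembl's annotation of WBcel235, the assembly called ce11, which held 14830 of the genes tested.

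The pairing comes from the letters in the labels. The correlation of deviations from the group means between partners was 0.47 to 0.90. No 2 samples of a pair, or of the same training and cultivation group, agreed within sampling noise, the lowest chi-square per degree of freedom being 12.1. Other combinations of samples were not compared. The design text calls the 3 samples of a condition biological replicates. Total counts were 9873554 to 30054357 per sample.

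The genes named were the 6 higher and 6 lower of lowest p over 9 pairs with a mean of at least 10 CPM, 5 each way per cultivation group, 5 for the difference, and genes of AWC signalling and memory. Members and lists were chosen with earlier results of these data known. Alternatives were DESeq2 1.42.0, other scaling, filters and dispersions, no block, separate fits, rows of ribosomal RNA and the mitochondrial genome left out, each pair left out, and an exon length correction. The main fit was tested on simulated counts, only for well-counted genes with changes of at least a doubling in either direction. That run does not cover the smaller changes reported here over 9 pairs. The study's lithium samples were not used here.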

Additional observations from a re-analysis of the deposited data

Results flagged for a closer look

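In nhr-62 the log2 ratio of conditioned to naive in the 20 °C pair E, 1.67, stood apart from the other 8 pairs by Dixon's ratio (0.54, against a critical value of 0.49 for 9 values). The levels behind it were 5.36 CPM in the conditioned and 1.62 CPM in the naive sample, the lowest of each group. Of 19 genes examined this was the 1 in which a pair stood apart, and chance alone gives about 1 such case in 20 groups. Without pair E the log2 fold change of nhr-62 was 0.61.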

How the results depend on the processing

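Over 9 pairs the count of genes past the adjusted threshold was 0 in the main fit, 248 with no filter on low counts, 45 in DESeq2 and 2 with the exon length trend removed. With a pair left out it was 28 without 20 °C pair E and 0 without any other. Within groups it was 34 at 15 °C, 10 at 15 to 20 °C, 18 at 20 °C and 12 for the difference with no filter. DESeq2 gave 2 at 15 °C, and a fit of the 6 samples of that group alone gave 86. With a pair left out it lay between 0 and 35 at 15 °C and between 0 and 1 at 15 to 20 °C, the 1 without pair H of that group. The count at an unadjusted p under 0.05 was 1990 with no filter over 9 pairs, 1041 at 15 °C, 931 at 15 to 20 °C, 892 at 20 °C and 556 for the difference. In separate fits it was 1699 at 15 °C, 1014 at 15 to 20 °C and 83 at 20 °C. With a pair left out it ranged from 781 (without 15 °C pair H) to 2285 (without 20 °C pair E) over 9 pairs, 156 to 1489 at 15 °C, 138 to 1390 at 15 to 20 °C, 445 to 1395 at 20 °C and 171 to 1815 for the difference. The highest count within each group and for the difference came without 20 °C pair F, and the lowest without pair H of 15 °C (15 °C, the difference), H of 15 to 20 °C (15 to 20 °C) and B of 15 °C (20 °C). The cause was not tested. With no replicate block, which ignores the pairing, no gene passed in any comparison, and 23 genes had an unadjusted p under 0.05 over 9 pairs, 17 at 15 °C, 7 at 15 to 20 °C, 60 at 20 °C and 12 for the difference.

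Of 63 single values of named genes 4 changed sign under some alternative. ZK180.5 at 20 °C ranged from -2.27 to 0.26 with a pair left out. egl-4 ranged from -0.023 to 0.12 with a pair left out, and was at -0.10 with the length trend removed, where tir-1 was at -0.11. acs-2 ranged from -0.062 to 0.031 with a pair left out. RLE scaling, non-robust dispersions, a filter of 10 counts in 9 samples and leaving out rows of ribosomal RNA and the mitochondrial genome changed no called count by over 1.5 times. Genes near 1 CPM, such as odr-1 and glr-1, are limited by depth.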
